A study of Mus musculus with 8 samples.

Results

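The complement cascade is a set of secreted proteases, their substrates and the receptors and inhibitors that act on them. Values of 36 complement genes were taken by symbol from the 23219 genes of a kidney RNA table, out of a list of 37 symbols. The remaining symbol, C1s1, is the current name of the gene that the table lists as C1s, so the list holds no gene that was missing. The genes were grouped as 10 of the classical pathway, 5 of the lectin pathway, 4 of the alternative pathway, 6 terminal components, 3 receptors and 8 regulators. RNA came from 4 mutant kidneys of genotype Six2Cre Mta2flx/flx and 4 control kidneys of genotype Mta2flx/flx, all from mice aged 2 months. Both groups carry floxed alleles of Mta2, a subunit of the NuRD remodelling and deacetylase complex, and the mutants also carry a Cre recombinase under Six2, a gene of nephron progenitors. The deletion is thus aimed at the nephron epithelium, while stroma, vessels and blood-derived cells of the same kidney lie outside the Six2 lineage. The labels do not say that each kidney came from a separate animal, so that the p-values speak only of the spread among these 8 libraries.

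Complement can start in 3 ways. In the classical pathway C1q binds antibody or damaged surfaces and its partner proteases C1r and C1s cut C4 and C2. The lectin pathway reaches the same step through sugar-binding lectins and MASP proteases. The alternative pathway runs on C3 itself with factor B and factor D, and properdin stabilises its convertase. All routes cut C3, and the late components C5 to C9 then form the membrane attack complex. Most plasma complement is made by liver. Kidney tubule cells are known to make C3, and tissue macrophages are the main makers of C1q. Host cells are protected by surface inhibitors such as CD55, CD59 and Crry, and by fluid inhibitors such as factor I and C1 inhibitor.

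Levels are given as sequenced bases assigned to a gene per megabase assigned to all genes (BPM). Libraries held 164 to 468 megabases in the mutants and 181 to 439 megabases in the controls. The share of bases in small RNA genes was 26.7%, 48.4%, 53.2% and 26.1% in mutants 3382, 3387, 3487 and 3489, and 16.0% to 34.8% in the controls. Mutants 3387 and 3487 stand apart in this share, and small RNA is part of the total to which BPM values are scaled. Alternative fits that allow for this share are given below, while its own part in the complement values was not tested. The targeted gene Mta2 had 52.6, 33.1, 14.3 and 48.9 BPM in the mutants and 49.0, 35.1, 67.9 and 52.4 BPM in the controls. The groups overlapped (log2 fold change -0.56, SE 0.40, limma adjusted p = 0.857), so the Mta2 level of a whole kidney does not by itself check the genotype labels, and bases in the floxed exons could not be separated. Kidney markers were present in every library, with 1017 to 3691 BPM of the loop gene Umod in the mutants and 1450 to 3909 in the controls. Values by library are given below in the order 3382, 3387, 3487 and 3489 for the mutants and 3401, 3486, 3586 and 3587 for the controls.

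A few complement genes had averages several times higher in the mutant kidneys, with a wide spread among them. C3 averaged 106 ± 93.3 BPM in the mutants and 9.53 ± 3.20 BPM in the controls, and Cfi, the protease factor I that cuts C3b, averaged 27.0 ± 22.1 BPM in the mutants and 1.98 ± 0.109 BPM in the controls (SD, n = 4 each). C4b, the fourth component, averaged 74.7 ± 80.0 BPM in the mutants and 7.08 ± 2.94 BPM in the controls, and C8g, the lipocalin subunit of C8, averaged 80.8 ± 27.1 BPM in the mutants and 24.8 ± 13.9 BPM in the controls (SD, n = 4 each). The membrane inhibitor gene Cd59a lay the other way, at 46.0 ± 11.8 BPM in the mutants and 79.3 ± 18.1 BPM in the controls (SD, n = 4 each).

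At least 1 BPM in 4 or more libraries was required for testing, which 26 of the 36 members met. With limma, 0 of the 26 members passed an adjusted p of 0.05, and 8 had an unadjusted p under 0.05, while of 13060 tested genes 0.107% passed the adjusted threshold (0.0766% higher and 0.0306% lower in the mutants). Of the 8 members, 7 were higher and 1 lower in the mutants, where over all tested genes the unadjusted shares were 6.33% in either direction, 1.91% higher and 4.42% lower. Those higher were C3, C4a, C4b, Cfi, C8g, C1qb and C1qc, and the lower one was Cd59a. Groups did not overlap for 5 members (4.29% of tested genes), of which C1qb, C8g and Cfi were higher (0.888% of tested genes) and Cd59a and Mbl1 lower (3.4% of tested genes). Overlap was judged here and below on BPM, whose totals include small RNA. Of the 26 tested members, 18 had a positive log2 fold change (mutant over control), against 28.4% of all tested genes, and their median was 0.54 beside -0.23 over all tested genes.

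The absence of calls depended on the scaling, on the weighting and on which libraries entered. Scaling each library by the median of gene ratios moved the median tested gene from -0.23 to 0.00 on the log2 scale and called 4 members, C3, C4b, Cfi and C8g, when 0.461% of tested genes were called. The same 4 members were called with totals taken without small RNA genes (0.433% of genes), by quantile normalization (0.528%) and with array weights (0.559%). Leaving out mutants 3387 and 3487 gave 4 calls too (0.398% of genes), with C4a in place of C8g. Without mutant 3487 alone 3 members, C3, C4b and Cfi, were called (0.308% of genes), with adjusted p of 0.00105, 0.00468 and 0.00304, and without control 3586 only C3 was called (0.148% of genes).

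**Figure D1:**
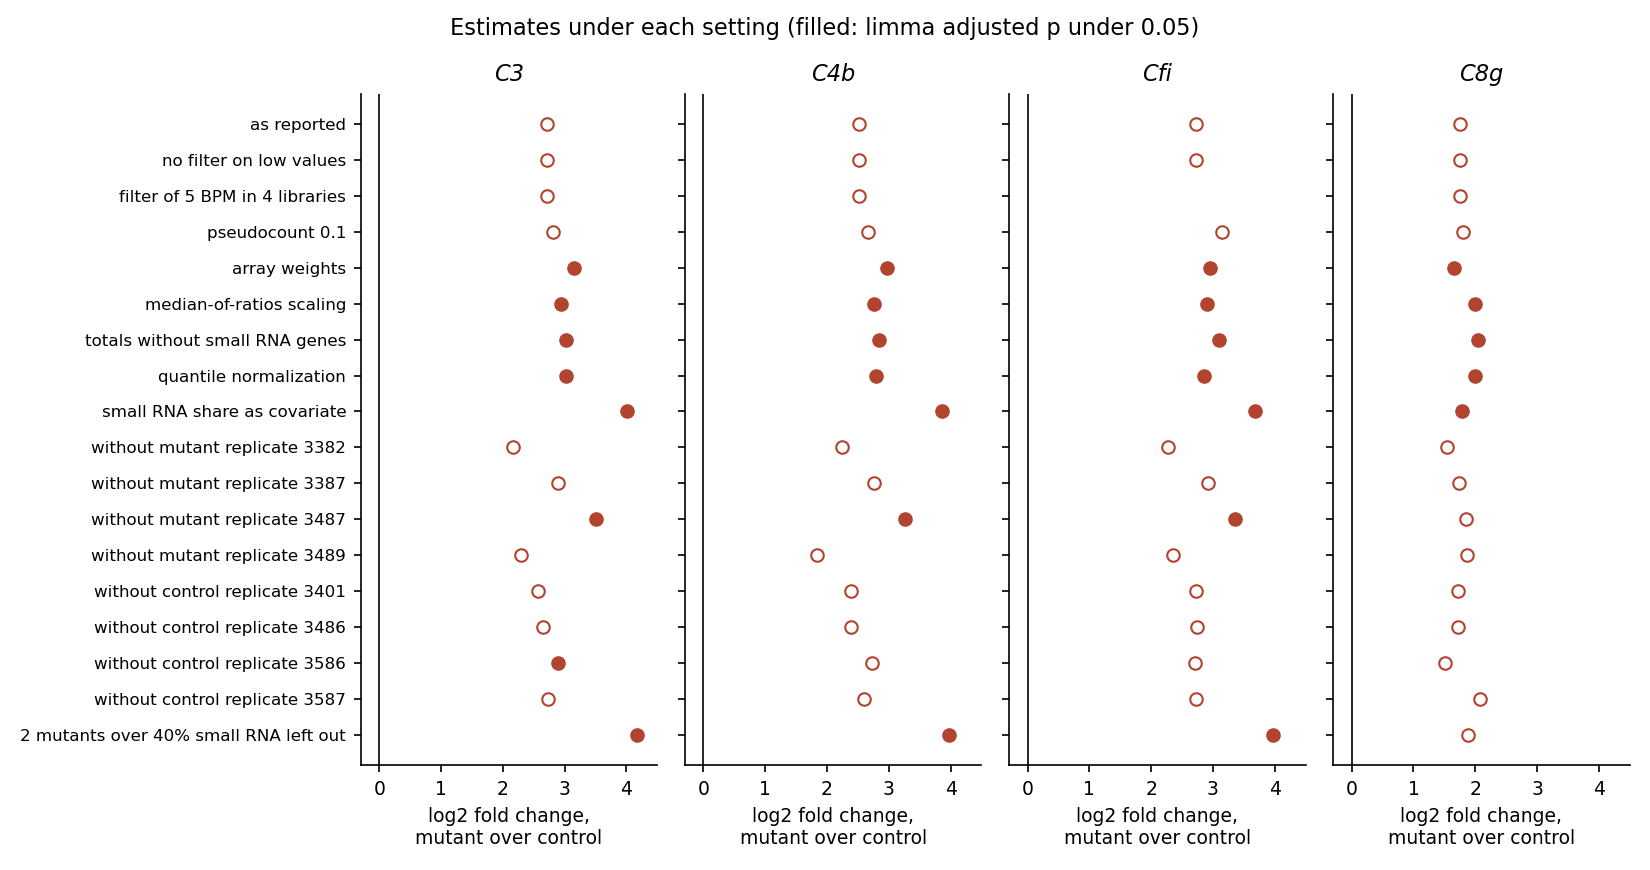
Log2 fold change, mutant over control, of C3, C4b, Cfi and C8g as reported and under each alternative that tested the gene; filled circles have a limma adjusted p under 0.05. All estimates are positive, and those of C3, C4b and Cfi are lowest without mutant 3382 or 3489 and highest without both 3387 and 3487, while those of C8g stay between 1.5 and 2.08.

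**Figure D2:**
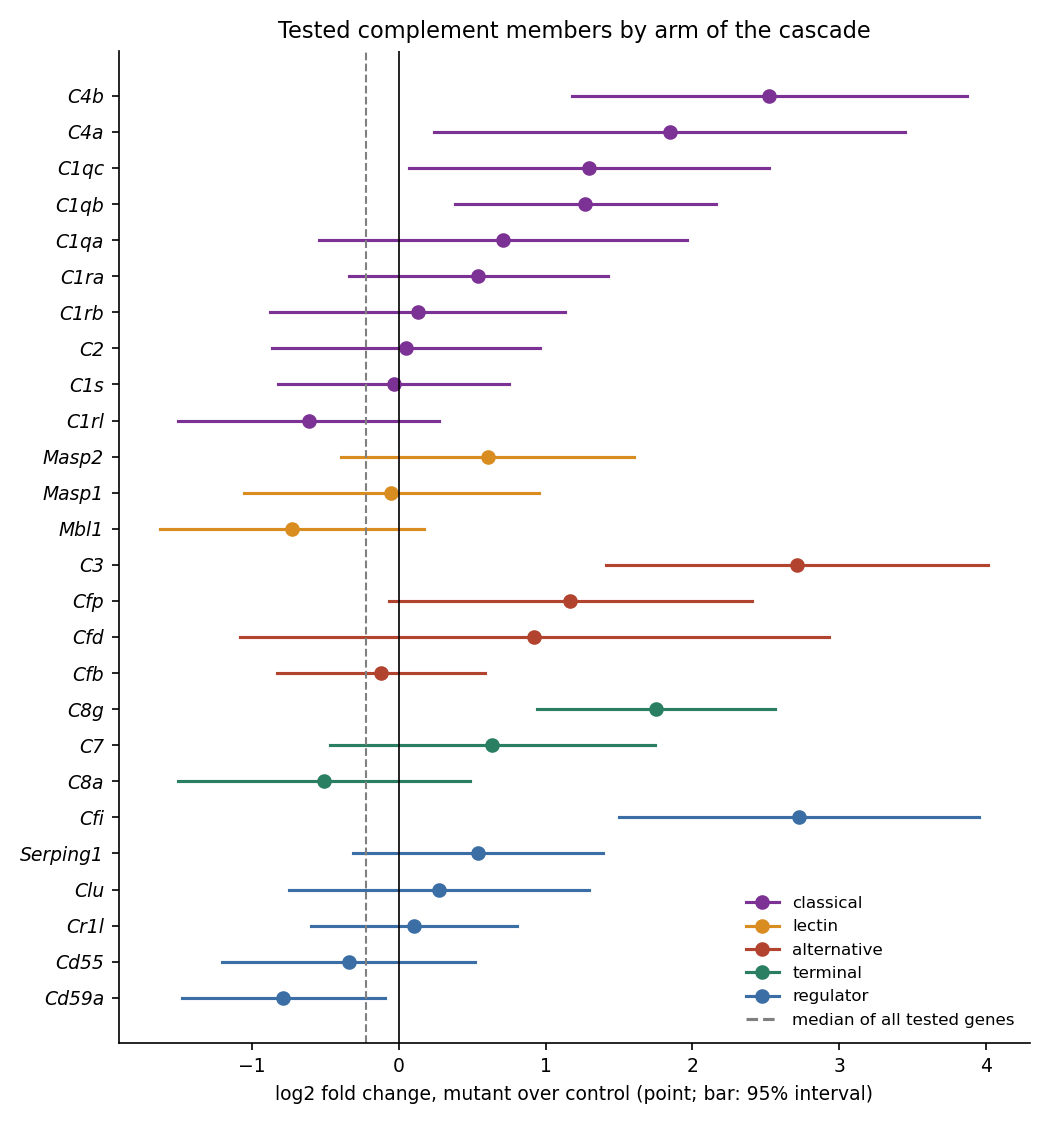
Log2 fold change, mutant over control, of the 26 tested complement members, grouped by arm of the cascade; points are limma estimates, bars 95% intervals, and the dashed line is the median of all tested genes at -0.23. Intervals of C3, C4a, C4b, C1qb, C1qc, C8g and Cfi lie above 0 and that of Cd59a lies below 0, while no member passed the adjusted threshold.

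The classical pathway starts with C1q, built from A, B and C chains encoded side by side on chromosome 4. C1qb had 147, 49.0, 34.2 and 56.9 BPM in the mutants and 13.7, 33.5, 26.5 and 30.8 BPM in the controls. Each mutant lay above each control, by a narrow margin for mutant 3487. In log2 terms the fold change came to 1.27 (SE 0.43, limma adjusted p = 0.510, 95% interval 0.38 to 2.16). C1qc had 51.0, 11.4, 3.84 and 13.9 BPM in the mutants and 2.12, 6.02, 7.78 and 5.65 BPM in the controls, a log2 fold change of 1.30 (SE 0.59, adjusted p = 0.779). C1qa had 98.5, 14.5, 6.18 and 40.1 BPM in the mutants and 11.3, 10.9, 14.2 and 27.6 BPM in the controls, a log2 fold change of 0.71 (SE 0.60, adjusted p = 0.870). For C1qc and C1qa the groups overlapped, and mutant 3382 was the highest library for all 3 chains. Without that library the estimates were 0.86 for C1qb, 0.69 for C1qc and 0.06 for C1qa.

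C1q and macrophage markers were high in the same mutant libraries. All 11 tested macrophage markers had a positive log2 fold change, with a median of 1.07, and 0 passed the adjusted threshold. Summed over the 14 markers in the table, they came to 1389, 248, 178 and 763 BPM in the mutants and 107, 146, 177 and 162 BPM in the controls. The 3 C1q chains together came to 296, 74.9, 44.3 and 111 BPM in the mutants and 27.1, 50.4, 48.5 and 64.1 BPM in the controls. Set against the macrophage sum, C1q was 21.3%, 30.2%, 24.9% and 14.5% in the mutants and 25.3%, 34.5%, 27.4% and 39.5% in the controls, and these ranges overlapped. The lysozyme gene Lyz2 was the largest term of the macrophage sum, at 110 to 1057 BPM in the mutants and 43.3 to 92.0 BPM in the controls. Cd68, a usual macrophage marker, was under 2 BPM in each library. In whole-kidney RNA, fewer or more cells of a type and less or more RNA per cell cannot be told apart, and the part of macrophage content in the C1q values was not tested.

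The promoter of C1qb is shown because its gene was the C1q chain whose groups did not overlap. The 250 bases before the start, read from the RefSeq promoter table (build GRCm38.p6, the assembly of mm10), lie at chr4:136886201-136886450 on the minus strand. None of the 4 motifs searched, which are spelled out below for C3, matched in this window.
C1qb: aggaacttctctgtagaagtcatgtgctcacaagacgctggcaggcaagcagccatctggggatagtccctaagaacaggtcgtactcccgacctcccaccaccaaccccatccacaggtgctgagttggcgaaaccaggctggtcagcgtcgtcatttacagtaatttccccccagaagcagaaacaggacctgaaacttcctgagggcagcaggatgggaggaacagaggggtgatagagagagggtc

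Further down the classical pathway, C4b stood out. It had 77.3, 26.3, 8.60 and 186 BPM in the mutants and 4.75, 4.75, 10.9 and 7.95 BPM in the controls. In BPM, whose totals include small RNA, mutants 3382, 3387 and 3489 lay above every control, and mutant 3487 lay within the control range. Mutant 3487 was below only control 3586, with small RNA shares of 53.2% and 16.0% in these 2 libraries. limma gave a log2 fold change of 2.52 (SE 0.64, adjusted p = 0.167, 95% interval 1.18 to 3.87), and it was 1.83 without mutant 3489. With totals taken without small RNA genes it was 2.84, with an adjusted p of 0.0324. C4a, the neighbouring copy, had 17.5, 0.478, 1.15 and 25.3 BPM in the mutants. Among the controls it had 2.63 and 1.52 BPM in 3586 and 3587 and no assigned bases in 3401 and 3486. Its log2 fold change was 1.85 (SE 0.77, adjusted p = 0.715). C4a and C4b are close copies, and RefSeq lists C4a as a transcribed pseudogene, so the division of bases between them is uncertain. C4a took 1.79% to 18.4% of their joint bases in the mutants, and 19.5% and 16.1% in controls 3586 and 3587.

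The proteases of the classical pathway had estimates nearer 0. C1s, which cuts C4 and C2, averaged 31.5 ± 15.5 BPM in the mutants and 30.0 ± 3.60 BPM in the controls (SD, n = 4 each; log2 fold change -0.03, 95% interval -0.82 to 0.75, limma adjusted p = 0.990), and its sign turned under 10 of the 17 alternatives. C1ra and C1rb, 2 copies of C1r whose bases may be shared, had log2 fold changes of 0.54 and 0.13 (adjusted p of 0.861 and 0.968). C1rl, a C1r-like protease, was at 12.4 ± 4.22 BPM in the mutants and 19.9 ± 7.19 BPM in the controls (log2 fold change -0.61, adjusted p = 0.857). C2, which supplies the catalytic part of the classical convertase, was at 20.8 ± 6.71 BPM in the mutants and 22.4 ± 14.9 BPM in the controls (log2 fold change 0.05, interval -0.86 to 0.96). For all of these genes the ranges of the groups overlapped. An antisense gene covers 18.4% of the exons of C1s, and how strand was treated is not named in these sources.

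Genes of the lectin pathway were low apart from Mbl1, which encodes mannose-binding lectin A. Mbl1 had 8.60, 5.0, 8.73 and 8.51 BPM in the mutants and 9.22, 21.5, 9.18 and 16.1 BPM in the controls. Every mutant lay below every control in BPM, with the nearest values 8.73 BPM in mutant 3487 and 9.18 BPM in control 3586. The totals behind these values include small RNA, at 53.2% in mutant 3487 and 16.0% in control 3586. Separation on totals without small RNA was not tested. In log2 terms the fold change came to -0.73 (SE 0.43, limma adjusted p = 0.836, 95% interval -1.63 to 0.17). Masp1 and Masp2, the proteases that lectins carry, were below 3 BPM in every library, with log2 fold changes of -0.05 and 0.61. The sign of Masp1 turned under 6 alternatives, and exons of Tardbp on the other strand cover 54.9% of the exons of Masp2. Mbl2, the second mannose-binding lectin, had assigned bases in 0 mutants and 2 controls, and the ficolin gene Fcna in 1 mutant and 0 controls.

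C3 is the protein on which all pathways converge. It had 209, 44.7, 11.9 and 160 BPM in the mutants and 6.57, 7.99, 14.0 and 9.62 BPM in the controls. In BPM, whose totals include small RNA, mutants 3382, 3387 and 3489 lay above every control. On that scale mutant 3487, the library richest in small RNA at 53.2%, lay within the control range. It was below only control 3586, where the small RNA share was 16.0%. limma gave a log2 fold change of 2.71 (SE 0.62, adjusted p = 0.102, 95% interval 1.41 to 4.02). It was 3.5 without mutant 3487, and 2.90 with an adjusted p of 0.0441 without control 3586. With totals taken without small RNA genes it was 3.02, with an adjusted p of 0.0150. Over all 17 alternatives it ranged from 2.16 to 4.17, with adjusted p from 5.62e-06 to 0.383, and it was called under 8 of them.

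The promoter of C3 is shown as that of the member with the highest fold among those with an entry in the promoter table. It lies at chr17:57228137-57228386 on the minus strand, and capitals mark its only match to the 4 motifs searched.
C3: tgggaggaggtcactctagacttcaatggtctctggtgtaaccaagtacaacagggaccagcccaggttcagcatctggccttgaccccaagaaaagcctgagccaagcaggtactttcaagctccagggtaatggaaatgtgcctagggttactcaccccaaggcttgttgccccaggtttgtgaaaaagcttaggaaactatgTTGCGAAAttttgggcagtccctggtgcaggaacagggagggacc
The motifs were GGG and TTTCC spaced by 2 bases (NF-kB like), TTCNNNGAA (STAT like), TTGCNNAA (C/EBP like) and GAAA and GAAA spaced by 2 bases (interferon response like), each searched on both strands of the 250 bases before the start. The C/EBP-like match in C3 is TTGCGAAA, at positions -45 to -38 from the start. Over all 32851 promoters of this length, 9.56% held a C/EBP-like match, 7.02% a STAT-like, 2.98% an interferon-like and 1.41% an NF-kB-like match. Of the 36 members 27 had an entry, with 29 promoters in all, and 5, 4, 1 and 1 of these held such matches in that order. A match is a run of letters and not a shown binding site.

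Factor B, which forms the alternative convertase with C3b, had the highest level per exon length of all members in both groups. Cfb had 486, 322, 226 and 542 BPM in the mutants and 340, 287, 564 and 491 BPM in the controls. The ranges covered each other almost fully, and limma put the log2 fold change at -0.12 (SE 0.34, adjusted p = 0.954, 95% interval -0.83 to 0.58), with its sign turned under 8 alternatives. An annotated gene that joins C2 and Cfb covers 79.5% of the exons of Cfb and is not listed in the table. Cfp, properdin, averaged 8.34 ± 9.86 BPM in the mutants and 2.05 ± 1.29 BPM in the controls (log2 fold change 1.17, interval -0.07 to 2.41, adjusted p = 0.806), with 22.9 BPM in mutant 3382 and at most 4.80 BPM in the other mutants.

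Factor D, the protease that cuts factor B, is known as adipsin for its making in fat cells. Cfd had 3.32, 8.91, 45.4 and 0.559 BPM in the mutants, and 8.86 and 23.0 BPM in controls 3486 and 3586, with no assigned bases in controls 3401 and 3587. Libraries of both groups thus ran from near nothing to over 20 BPM (log2 fold change 0.92, SE 0.96, limma adjusted p = 0.895). Adipoq, a defining gene of fat cells, ran in the same order, at 0.827, 4.01 and 11.4 BPM in mutants 3382, 3387 and 3487 and no assigned bases in mutant 3489. Controls 3486 and 3586 had 3.87 and 4.72 BPM of Adipoq and the other controls none. Most other fat cell markers had another order in the mutants. Cidec was at 1.30, 1.25, 5.75 and 2.18 BPM, and Plin1, Lep and Fabp4 differed from the order of Cfd too. Cidec and Plin1, like Cfd, were highest in mutant 3487, and among the controls had assigned bases only in 3486 and 3586. In those controls Cidec was at 1.94 and 5.64 BPM and Plin1 at 1.09 and 4.93 BPM. Lep had assigned bases only in mutant 3387 and control 3586, and Fabp4 in every library. Retn had assigned bases only in mutants 3387 and 3487 and control 3586. Summed over 6 fat cell markers, the mutants held 58.6, 37.1, 54.9 and 42.6 BPM and the controls 43.5 to 63.0 BPM. Most of these sums came from Fabp4, which vessels also express. The part of fat tissue in the Cfd values was not tested.

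**Figure D3:**
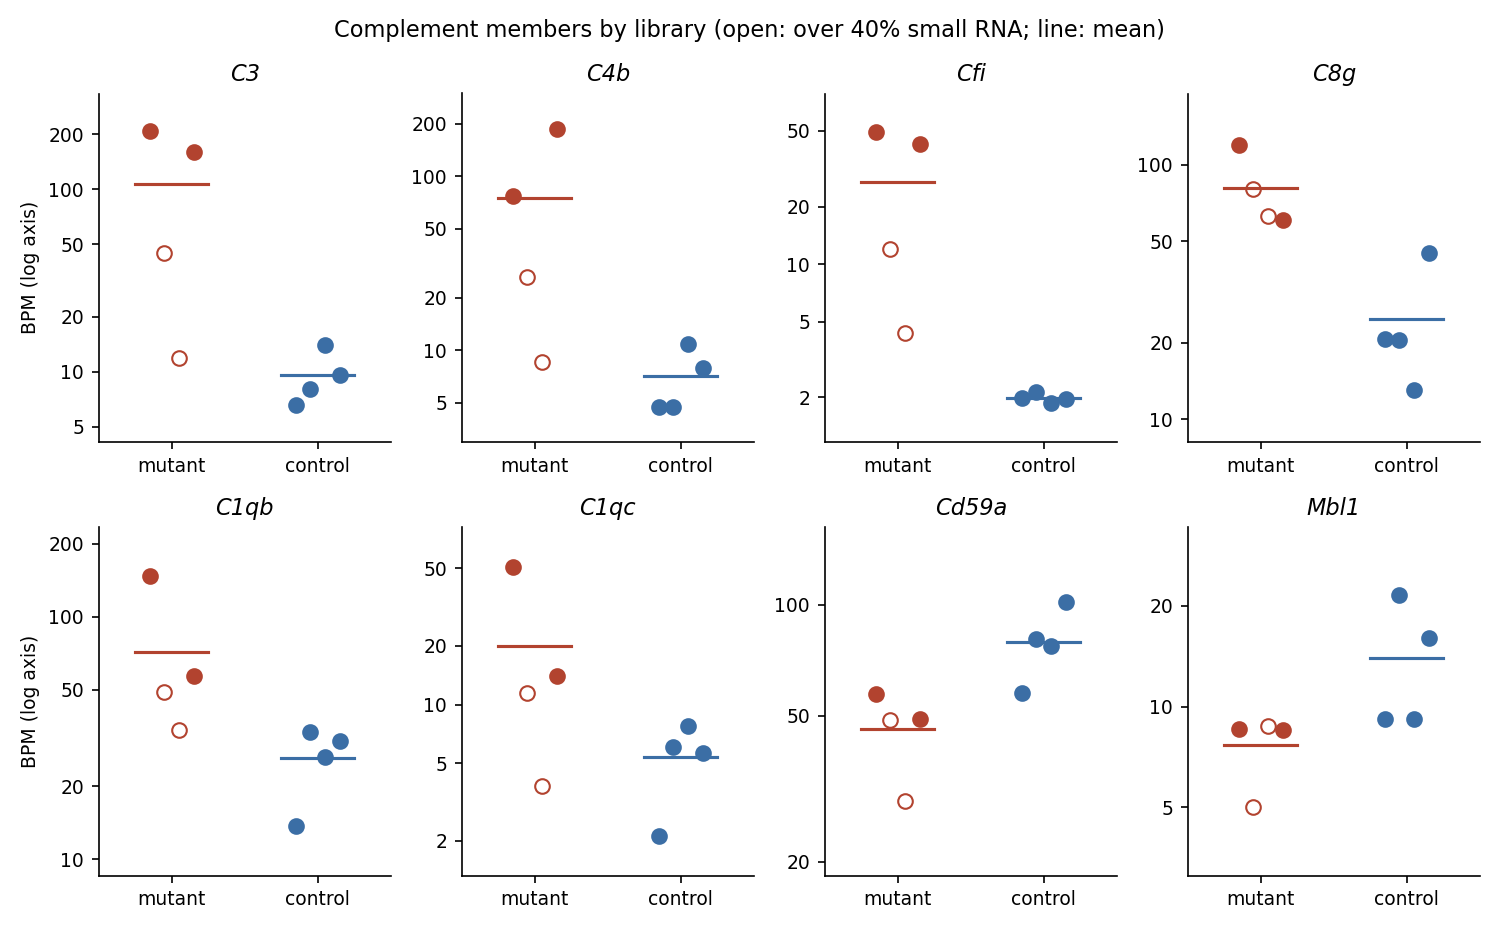
Levels in BPM on log axes of 8 complement members in each library, mutants on the left and controls on the right of each panel; lines are group means and open circles mark the mutants over 40% small RNA. C3, C4b and Cfi spread widely among the mutants, while C8g and Cd59a have a smaller spread and do not overlap the controls in BPM. For Cd59a this separation is narrow, at 57.2 BPM in mutant 3382 and 57.5 BPM in control 3401, and the totals include small RNA.

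Among the terminal components C8g differed most. It had 119, 80.2, 62.9 and 60.7 BPM in the mutants and 20.6, 20.6, 13.0 and 44.9 BPM in the controls. All mutants lay above all controls, mutants 3387 and 3487 included. In log2 terms the fold change came to 1.75 (SE 0.39, limma adjusted p = 0.0856, 95% interval 0.94 to 2.56). Estimates stayed between 1.5 and 2.08 over the 17 alternatives, a narrower range than for C3, C4b or Cfi. Adjusted p ran from 0.0105 to 0.371 and 5 alternatives called the gene.

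C8g (chromosome 2, 25498651 to 25501719, mm10) encodes the gamma chain of C8, a lipocalin bound to the alpha chain. The alpha chain gene C8a averaged 11.8 ± 8.31 BPM in the mutants and 16.0 ± 6.62 BPM in the controls (log2 fold change -0.51, limma adjusted p = 0.887), and the beta chain gene C8b had no assigned bases in any library. C8g lies among other lipocalin genes, and the genes within 40 kilobases did not all go the same way. Ptgds, a lipocalin that makes prostaglandin D, lies 28605 bases away and averaged 40.6 ± 16.0 BPM in the mutants and 7.45 ± 3.97 BPM in the controls (log2 fold change 2.35, adjusted p = 0.0360). Fbxw5, which overlaps C8g on the opposite strand, averaged 19.6 ± 8.65 BPM in the mutants and 28.4 ± 9.57 BPM in the controls (log2 fold change -0.54, adjusted p = 0.857). The exons of Fbxw5 and C8g share 0 bases. Lcn12, 4740 bases from C8g, had no assigned bases in any library, and Traf2 and Clic3 had log2 fold changes of 0.25 and -0.19.

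C7, which joins C5b and C6 on the membrane, averaged 20.5 ± 17.2 BPM in the mutants and 9.36 ± 1.11 BPM in the controls (log2 fold change 0.64, limma adjusted p = 0.865). Mutants 3382 and 3489 had 42.2 and 26.1 BPM, above all controls, and mutant 3487 had 4.82 BPM, below all of them. The totals behind these values include small RNA, at 53.2% in mutant 3487 and 16.0% to 34.8% in the controls. C6 stayed under 1.2 BPM in each library. C9, the pore-forming component, had assigned bases in 3 mutants and 0 controls, with at most 1.73 BPM. Of the membrane attack complex genes, C6, C8b and C9 were thus too low to test.

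The 3 receptor genes were too low to test. C3ar1, the receptor of the anaphylatoxin C3a, reached 2.52 BPM in mutant 3382 and at most 1.14 BPM in the controls. C5ar1, the receptor of C5a, reached 2.04 BPM in the mutants and 1.05 BPM in the controls. Cr2, the receptor of C3 fragments on B cells, had assigned bases in 1 mutant and 3 controls and stayed below 1 BPM. B cell markers were low as well, with a sum of 0.801 to 4.83 BPM in the mutants and 1.88 to 7.23 BPM in the controls over 6 genes, and Pax5 without bases in any library.

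Of the regulators, factor I differed most between the groups. Cfi had 49.1, 12.0, 4.37 and 42.5 BPM in the mutants and 1.98, 2.13, 1.86 and 1.97 BPM in the controls. Every mutant lay above every control, and the controls agreed closely with one another. limma gave a log2 fold change of 2.73 (SE 0.59, adjusted p = 0.0752, 95% interval 1.5 to 3.95). Over the alternatives it ranged from 2.28 without mutant 3382 to 3.97 without mutants 3387 and 3487, and 7 of them called it.

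Cfi, C3 and the C1q chains shared an order of the mutants, with 3382 highest, then 3489, 3387 and 3487. That full order held for 13 of the 26 tested members, against 28.1% of all tested genes, and not for C4b or C8g. Mutant 3382 was the highest mutant for 16 members (61.5%), against 49.6% of all tested genes. Mutant 3487 was the lowest for 17 (65.4%), near the 63.5% of all tested genes. Fibroblast markers, summed over 8 genes, came to 1622, 453, 231 and 792 BPM in the mutants and 325 to 403 BPM in the controls, with 6 of 8 at a positive log2 fold change. Markers of injured tubule, summed over 6 genes, came to 3204, 1464, 591 and 2404 BPM in the mutants and 487 to 844 BPM in the controls, with 4 of 4 tested at a positive log2 fold change. Most of that sum was Spp1, osteopontin, with 2701 BPM in mutant 3382, and 1 marker passed the adjusted threshold, Havcr1, the gene of kidney injury molecule KIM-1 (log2 fold change 3.49, limma adjusted p = 0.0103). Proximal tubule markers summed to 2403 to 6205 BPM in the mutants and 2954 to 9450 BPM in the controls, with 0 of 6 estimates above 0 (median log2 fold change -0.48). Markers of other nephron segments summed to 1248 to 4529 BPM in the mutants and 1795 to 4925 BPM in the controls, with 1 of 6 estimates above 0 (median -0.15). Hepatocyte markers summed to 22.3 to 65.5 BPM in the mutants and 12.1 to 42.2 BPM in the controls over 8 genes, with 5 of 5 tested at a positive log2 fold change and Apoa1 without bases in any library. The parts of these cell types in the complement values were not tested. When small RNA share entered the fit as a covariate, 11 members passed the threshold, all with positive estimates, when 3.73% of tested genes did.

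**Figure D4:**
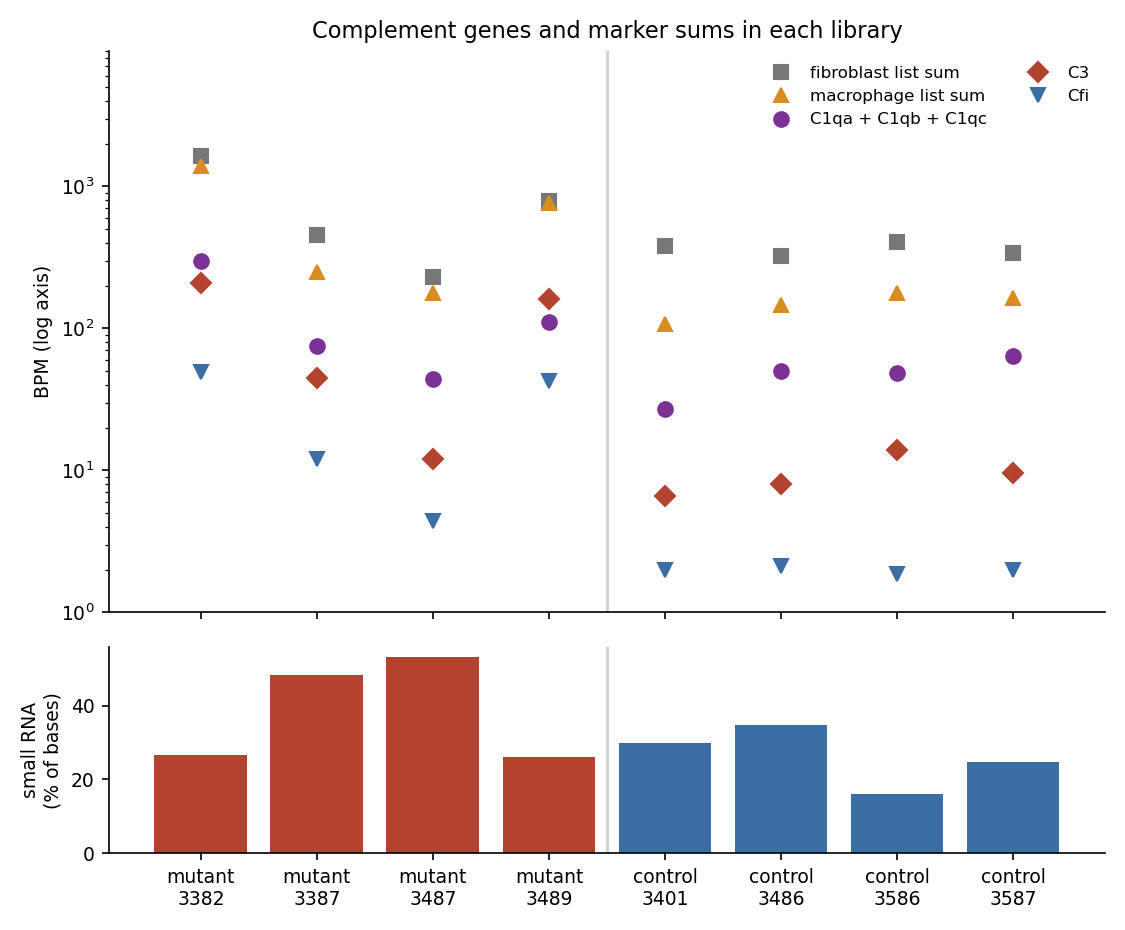
Upper panel, BPM on a log axis in each library for C3, Cfi, the sum of the 3 C1q chains and the summed macrophage and fibroblast markers; lower panel, percent of bases in small RNA genes. C3 runs from 11.9 to 209 BPM among the mutants and is lowest in mutant 3487, where the small RNA share is highest at 53.2%.

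Among the membrane inhibitors, Cd59a had lower values in the mutants. CD59 blocks the insertion of C9, and Cd59a is its widely expressed mouse copy. Cd59a had 57.2, 48.5, 29.4 and 48.8 BPM in the mutants and 57.5, 80.8, 77.1 and 102 BPM in the controls. The groups did not overlap in BPM, whose totals include small RNA, although mutant 3382 and control 3401 were nearly equal. In log2 terms the fold change came to -0.78 (SE 0.33, limma adjusted p = 0.720, 95% interval -1.48 to -0.09), or -0.56 relative to the median tested gene. It stayed negative under all 17 alternatives with no call. Its unadjusted limma p was 0.0284 as reported and 0.0420 with small RNA share as covariate. That p was 0.0592 with median-of-ratios scaling, 0.0568 with totals without small RNA genes and 0.0576 with quantile normalization.

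The promoter of Cd59a is shown as that of the member with an unadjusted p under 0.05 on the lower side. It lies at chr2:104095551-104095800 on the plus strand, and capitals mark an interferon-like match, GAAAGGGAAA, at -187 to -178.
Cd59a: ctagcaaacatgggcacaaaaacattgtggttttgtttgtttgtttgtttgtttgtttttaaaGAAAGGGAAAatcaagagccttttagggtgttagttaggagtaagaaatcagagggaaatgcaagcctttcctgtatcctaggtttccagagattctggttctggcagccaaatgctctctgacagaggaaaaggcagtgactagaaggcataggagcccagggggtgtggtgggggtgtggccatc

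CD55 speeds the decay of convertases. Cd55 had 8.66, 10.5, 7.01 and 12.9 BPM in the mutants and 9.06, 18.9, 12.0 and 11.3 BPM in the controls (log2 fold change -0.34, SE 0.41, limma adjusted p = 0.906). Cr1l encodes Crry, the rodent surface inhibitor of C3 and C4 deposition, and had 42.1, 41.5, 26.5 and 41.5 BPM in the mutants and 28.2, 32.2, 40.8 and 38.9 BPM in the controls. In both genes the groups overlapped, and the 95% interval for Cr1l was -0.60 to 0.80 around a log2 fold change of 0.10. Cd46, which in mice is known chiefly from the sperm acrosome, stayed below 1 BPM in all libraries but control 3401, at 1.69 BPM, and had no assigned bases in control 3587. The mutants had 0.633, 0.419, 0.465 and 0.371 BPM, and controls 3486 and 3586 had 0.436 and 0.230 BPM.

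For C1 inhibitor and clusterin, regulators in the fluid phase, the groups overlapped. Serping1, C1 inhibitor, had 204, 72.1, 38.0 and 124 BPM in the mutants and 62.5, 59.6, 65.3 and 63.4 BPM in the controls. Mutants 3382, 3387 and 3489 lay above the tight control range and mutant 3487 below it, in BPM whose totals include small RNA. The small RNA share was 53.2% in mutant 3487 and 16.0% to 34.8% in the controls. Serping1 had a log2 fold change of 0.54 (SE 0.41, limma adjusted p = 0.857). Clu, clusterin, which blocks the late complex, had 140, 36.0, 25.4 and 106 BPM in the mutants and 48.3, 31.5, 107 and 39.2 BPM in the controls. Its log2 fold change was 0.27 (SE 0.49, adjusted p = 0.933), and -0.12 without mutant 3382. C4bp, the C4b-binding protein, was too low to test, with at most 2.23 BPM in the mutants and 1.13 BPM in the controls.

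Per kilobase of exon the members spanned a wide range. Cfb stood first in both groups, at 139 ± 51.5 BPM per kilobase in the mutants and 149 ± 45.6 in the controls (SD, n = 4 each). In the controls Cd59a came next at 43.8 BPM per kilobase, then Serping1 at 27.0 ± 1.02, C1qb at 24.0 ± 8.07 and C8g at 16.6 ± 9.29. Neighbours among Serping1, C1qb and C8g lay within their combined spread. In the mutants C1qb came next after Cfb at 65.9 ± 46.7 BPM per kilobase, then C8g at 54.1 ± 18.1, Serping1 at 47.1 ± 31.0 and C1qa at 38.3 ± 40.1, and neighbours in this order had overlapping spreads. C3 was at 20.7 ± 18.1 BPM per kilobase in the mutants and 1.85 ± 0.622 in the controls, rank 8 and rank 20 of 36. Cfi was at rank 11 in the mutants and rank 23 in the controls, and C4b at rank 10 and rank 21. Merged exons of all annotated transcripts were used as the length, which understates levels of genes with long rare transcripts.

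**Figure D5:**
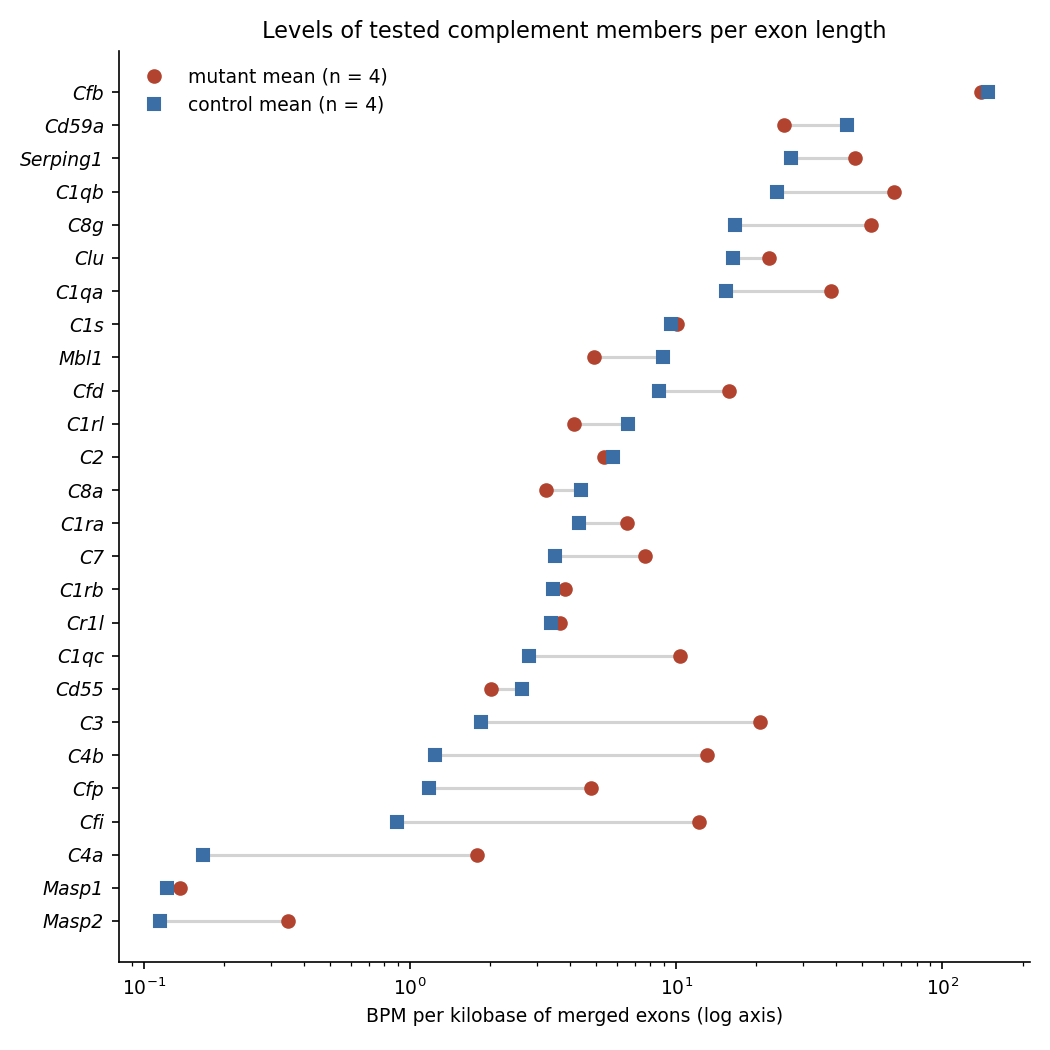
Mean BPM per kilobase of merged exons, on a log axis, of the 26 tested members in mutant (circles) and control (squares) kidneys, n = 4 each, sorted by the control level. Cfb is highest in both groups, and the widest gaps between groups are at C3, C4a, C4b and Cfi.

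Other genes tied to complement were near the background. Of 25 further genes with values, 16 were tested, with 6 at a positive and 10 at a negative log2 fold change, and 0 passed the adjusted threshold in limma. Their median log2 fold change was -0.13, beside -0.23 over all tested genes, and 37.5% were positive, beside 28.4%. Cpb2 was the member of this set with an unadjusted p under 0.05, which makes 6.25% of the set, beside 6.33% of all tested genes. It encodes a plasma carboxypeptidase that trims C3a, C5a and fibrin, and had 7.82, 0.465, 3.80 and 15.2 BPM in the mutants and 22.5, 15.9, 23.5 and 33.5 BPM in the controls. The groups did not overlap, though mutant 3489 came near control 3486 (log2 fold change -2.10, SE 0.58, adjusted p = 0.237, with 0.0565 to 0.835 over the alternatives). Itgam, the alpha chain of complement receptor 3 on myeloid cells, had an estimate of 0.64 on the log2 scale (adjusted p = 0.896). The C5 gene, Hc, reached at most 0.971 BPM. Itgam and Hc were picked for mention after their values were seen.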

How the data were processed

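RNA of 8 kidneys was measured with ribosomal RNA depleted and Ion Total RNA-seq libraries, per the labels' protocols. The authors deposited 1 table of 23219 genes, whose header gives library names and no unit. Values were read as a coverage signal, deposited after scaling to a nearly equal total in each library. Each library's values moved in steps of its smallest value (100% within 1e-06), and 0.0435% of the positive values lay 1 to 19 steps up, so a step was taken as 1 sequenced base and not 1 read. Read numbers behind a value are therefore unknown, and no counting interval is given. The authors also deposited a ratio of group means and an unadjusted p-value. Per the submitters' processing notes, bedtools and mm10 were used; for the aligner, annotation, strand and multi-match handling, the sources used here name nothing.

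Values were rescaled so that each library has the same total, as bases per megabase (BPM). Genes with at least 1 BPM in 4 libraries (13060) entered limma 3.58.1 (R 4.3.3), fitted to log2(BPM + 1) with its trend option; tests are 2-sided, with Benjamini-Hochberg adjustment over all of them. The pseudocount understates changes of low genes. The script was tested on simulated data. Symbols were matched to GENCODE vM21 (22829 of 23219, with 1242 through older names), and 1-based spans are given in mm10. Small RNA genes were taken from GENCODE classes. The members, gene lists, alternatives and motifs were chosen with earlier results of these data known. Each member is named; values in each library are given for members with an unadjusted p under 0.05, groups that do not overlap, or a place on a fixed list of central genes. The numbers in library titles are not shared between the groups. The result of 1 gene is not reported here.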

Additional observations from a re-analysis of the deposited data

Results flagged for a closer look

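Among the 52 sets of 4 libraries examined (26 tested members in each genotype), 2 held a library far from the other 3 on the log2(BPM + 1) scale. Chance alone flags about 1 set in 20, a share that these 2 sets of 52 did not exceed. Mbl1 in mutant 3387, at 5.0 BPM beside 8.51 to 8.73 BPM in the other mutants, left a gap of 0.953 of the whole range of the mutants. Cr1l in mutant 3487, at 26.5 BPM beside 41.5 to 42.1 BPM in the other mutants, left a gap of 0.966. The small RNA share was 48.4% in mutant 3387 and 53.2% in mutant 3487, and its part in these gaps was not tested.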

How the results depend on the processing

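Unfiltered, at 5 BPM or with a pseudocount of 0.1, 0 members passed. The count of called members was 4 with array weights, median-of-ratios scaling, totals without small RNA genes and quantile normalization, and 11 with small RNA share as covariate. It ranged from 0 to 3 without single libraries (3 without mutant 3487, 1 without control 3586) and was 4 without mutants 3387 and 3487, an alternative chosen after seeing the data. Of the other complement genes, 1 (Itgam) was called with the covariate. Over all genes the 14 calls became 4 with no filter, 9 with a filter of 5 BPM, 9 with a pseudocount of 0.1, 73 with array weights, 60 with median-of-ratios scaling, 58 with totals without small RNA genes, 69 with quantile normalization, 487 with the covariate and 51 without both mutants, and 5 to 40 without single libraries. The array weights were estimated with a convergence warning.

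The estimates of 8 genes changed sign, and the reversed values given here did not pass the threshold. C1s was 0.0703 with array weights, 0.21 with median scaling, 0.24 with totals without small RNA, 0.23 with quantile normalization, 0.36 with the covariate, 0.47 without both mutants, and up to 0.14 from -0.32 without single libraries. Cfb was 0.0274, 0.13, 0.16, 0.17, 0.40 and 0.34 under the same settings, and -0.30 to 0.12 without single libraries. Masp1 was 0.16 with array weights, 0.0237 with median scaling, 0.0209 with totals without small RNA and 0.19 with the covariate, and -0.12 to 0.30 without single libraries. Without single libraries, C1rb ran from -0.16 to 0.40, C2 from -0.25 to 0.43, Clu from -0.12 to 0.68 and Itgam from -0.0229 to 1.40, and Cfd was -0.0137 with the covariate. The cause was not tested. No paired analysis was possible because the groups share no replicate numbers. Of the 10 members left out by the filter, 9 entered the unfiltered fit, which called 0 members.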

Other observations

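Complement genes lie in several clusters, and members of 1 cluster did not always go together. On chromosome 17, C4b, C4a, Cfb and C2 lie between 34728380 and 34898265 (mm10), with log2 fold changes of 2.52, 1.85, -0.12 and 0.05 in that order along the chromosome. On chromosome 6, C1rl, C1ra, C1s and C1rb lie between 124493113 and 124581171, at -0.61, 0.54, -0.03 and 0.13. On chromosome 4, C1qb, C1qc and C1qa lie between 136880129 and 136898803, at 1.27, 1.30 and 0.71. C1qb took the largest share of the bases of the 3 chains in each library, at 49.5% to 77.4% in the mutants and 48.1% to 66.5% in the controls.

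In the authors' deposited table, 2 of the 36 members have an unadjusted p under 0.05, C8g with 0.0103 and Cd59a with 0.0216, where 4.5% of all genes do. The authors' deposited table gives C3 a p of 0.0834 and Cfi 0.0642, with ratios of 11.2 and 13.6, on linear values.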
